A study of Homo sapiens with 4 samples.

Results

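The miR-106a-363 and miR-106b-25 clusters are the paralogs of the better known miR-17-92 cluster, and 10 of their mature miRNAs were examined in cortical interneurons derived from human embryonic stem cells. The miRNAs were chosen by name and by no rule on their values, but earlier results of these data were known. From the first cluster they were hsa-miR-106a-5p, hsa-miR-18b-5p, hsa-miR-20b-5p and hsa-miR-363-3p. From the second they were both arms of 3 hairpins, hsa-miR-106b-5p, hsa-miR-106b-3p, hsa-miR-93-5p, hsa-miR-93-3p, hsa-miR-25-3p and hsa-miR-25-5p. The prefix hsa, for human, is dropped from here on. All 10 were among the 2656 mature miRNAs of the count table, and 9 of them were abundant enough to be tested. The remaining one, miR-18b-5p, had 9 counts or fewer in every library.

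The 4 small RNA libraries came from interneurons differentiated from H1, an established human embryonic stem cell line. The exposed group was 2 cultures grown for 7 days in maturation medium with ethanol at around 50 to 100 mM, followed, by the study's methods, by 24 h without ethanol. The unexposed group was 2 cultures kept for 7 days in the same medium without ethanol. Both groups carry the genome of 1 cell line, the work was done in duplicate, and nothing says that the duplicates were separate differentiations, so P values measure the spread between these cultures, which may be technical.

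The libraries held between 12100425 and 24858230 counts, and each exposed library was deeper than each unexposed one, so depth and exposure cannot be told apart. A share of 3 counts, the smallest told from 0 here, was between 0.121 and 0.248 CPM, the usual scale on which counts are divided by the total of their library. These floors, and the intervals below, cover counting error only. Of 7 neuronal marker miRNAs all were found in every library, with a summed level of 299516 to 480153 CPM, and of 8 miRNAs of pluripotent stem cells 3, among them miR-367-3p and miR-373-3p, were at 0 counts in all 4 libraries. The summed level of the stem cell miRNAs was 2.42 and 2.92 CPM in exposed and 3.48 and 3.89 CPM in unexposed cells, and this was the only one of 5 marker lists whose sums did not overlap between the groups. Most of this gap came from miR-302b-3p, while miR-372-3p and miR-302d-3p overlapped, and neither of the 2 that could be tested had a P under 0.05 in edgeR. Single neuronal markers also differed, as miR-124-3p had a log2 fold change of 0.77 (unadjusted P of 0.0316 and adjusted p of 0.922 in edgeR) and miR-7-5p, at 79239 and 135220 CPM with ethanol and 187052 and 146034 CPM without it, one of -0.64 (P of 0.107 in edgeR). Oligodendrocyte markers summed to 75.7 to 116 CPM, mesenchymal markers to 80.2 to 111 CPM and blood markers to 0.155 to 0.739 CPM. These miRNAs mark neurons in general and do not identify interneurons.

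Each cluster is transcribed as 1 long RNA, from which the enzymes Drosha and Dicer cut hairpins and then short duplexes. Usually 1 strand of the duplex is loaded into Argonaute and guides it to messenger RNAs that pair with its seed, bases 2 to 8 counted from the 5′ end. The miR-17 seed family is known for driving the cell cycle, for example by repressing the inhibitor CDKN1A, and the miR-92 seed family, to which miR-25 and miR-363 belong, for repressing the cell death gene BCL2L11 and the inhibitor CDKN1C. miR-106b-25 is known for its activity in neural stem and progenitor cells, while neurons no longer divide.

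In GENCODE 29 on GRCh38, the 3 hairpins of miR-106b-25 lie within 515 bases of the minus strand of chromosome 7. MIR106B is at 100093993 to 100094074, MIR93 at 100093768 to 100093847 and MIR25 at 100093560 to 100093643. All 3 are intronic in each of the 8 transcripts of MCM7 that span them, a gene for a subunit of the replicative helicase. The 6 hairpins of miR-106a-363 lie within 901 bases of the minus strand of chromosome X, from MIR106A at 134170198 to 134170278 to MIR363 at 134169378 to 134169452. Between these lie MIR18B (134170041 to 134170111), MIR20B (134169809 to 134169877), MIR19B2 and MIR92A2. They overlap an exon of the noncoding transcript AC002407.1. The count table carries no coordinates, so these positions were matched by name, and the submitters' processing notes name the build hg19.

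The mature sequences below (RefSeq, GRCh38.p14, found for all 10) are shown because the members fall into groups that share a seed, printed in capitals, and because some differ from a miR-17-92 miRNA by very few bases. The first group is that of miR-17-5p, which is printed last for comparison.
miR-93-5p: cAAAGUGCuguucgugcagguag
miR-106b-5p: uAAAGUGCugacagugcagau
miR-106a-5p: aAAAGUGCuuacagugcagguag
miR-20b-5p: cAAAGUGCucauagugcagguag
miR-17-5p: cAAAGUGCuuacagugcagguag
The second group is that of miR-92a-3p, again printed last.
miR-25-3p: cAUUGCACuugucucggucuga
miR-363-3p: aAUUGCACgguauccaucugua
miR-92a-3p: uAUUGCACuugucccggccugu
The third member group holds miR-18b-5p, printed with its miR-17-92 counterpart.
miR-18b-5p: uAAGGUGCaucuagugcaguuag
miR-18a-5p: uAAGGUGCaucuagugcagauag

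Counted from 1 at the 5′ end and with the base of the member first, miR-106a-5p differs from miR-17-5p only by A1C, and miR-18b-5p from miR-18a-5p only by U20A. miR-20b-5p differs from miR-20a-5p by C1U and C10U. How a read that fits more than 1 miRNA was assigned is not given in the sources used here, so the split of counts within these pairs is uncertain. miR-93-5p and miR-106b-5p differ from miR-17-5p at 4 and 3 positions. miR-25-3p differs from miR-92a-3p at 4 positions and miR-363-3p at 12, so these share a seed and, for miR-363-3p, little else.

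The precursor of miR-106b is printed with its mature arms in capitals, the 5p arm first, because its arms were not used as their older names would lead one to think, and that of miR-25 for comparison (RefSeq, GRCh38.p14, minus strand).
MIR106B: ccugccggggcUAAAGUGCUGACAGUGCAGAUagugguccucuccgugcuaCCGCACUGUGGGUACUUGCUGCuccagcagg
MIR25: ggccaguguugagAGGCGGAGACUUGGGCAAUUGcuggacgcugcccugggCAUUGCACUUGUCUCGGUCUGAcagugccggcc

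The members spanned a wide range of levels. All levels below are CPM after TMM scaling, which corrects the library totals for differences in composition. They were not divided by length, since the mature miRNAs are 21 to 23 bases long, and a difference in level between miRNAs also carries any difference in how well each was captured in the library. miR-25-3p was the most abundant, at 11718 and 10720 CPM in exposed and 9835 and 14335 CPM in unexposed cells, and it ranked 20 among the 863 miRNAs tested. Next came miR-93-5p, whose 4 values lay between 1623 and 2894 CPM, and miR-106b-3p, between 1506 and 1727 CPM, and these ranges overlapped. miR-363-3p followed at 340 to 598 CPM and miR-106b-5p at 178 to 204 CPM, each apart from its neighbours in this order.

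Below these, miR-20b-5p (45.7 to 110 CPM), miR-25-5p (51.0 to 64.8 CPM) and miR-106a-5p (35.8 to 63.8 CPM) overlapped one another, and miR-93-3p lay just under them at 28.8 to 34.0 CPM. miR-18b-5p had 9 and 6 counts in exposed and 1 and 7 counts in unexposed cells. Before TMM scaling the 95% Wilson intervals around these counts ran from 0.213 to 0.770 and from 0.111 to 0.527 CPM with ethanol, and from 0.0127 to 0.406 and from 0.280 to 1.19 CPM without it. All 4 intervals overlap, so a difference in miR-18b-5p was not detectable at this depth. Its counterpart miR-18a-5p was at 11.5 to 17.3 CPM.

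**Figure D1:**
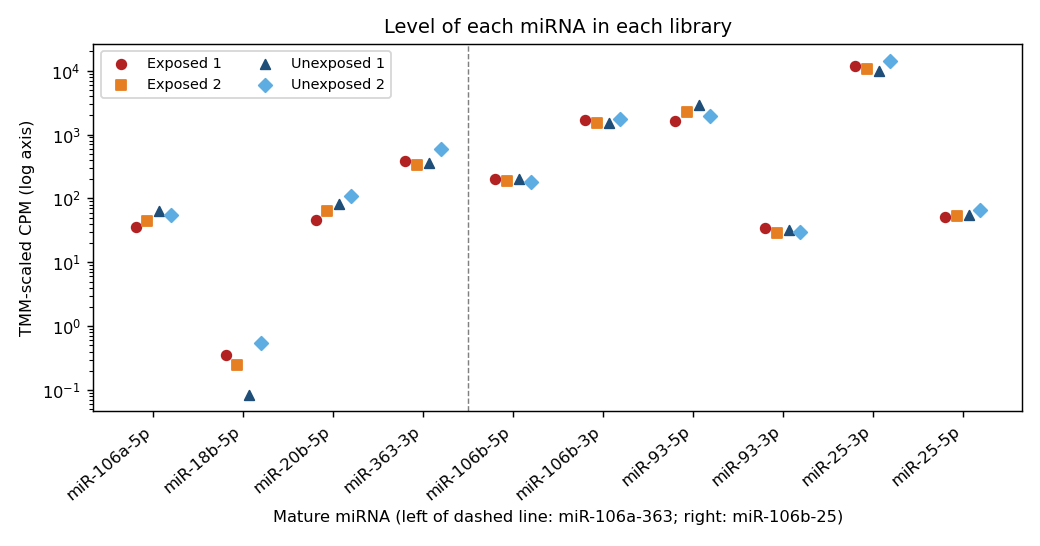
Level of the 10 miRNAs in TMM-scaled CPM on a log axis, with 1 point per library (2 exposed, 2 unexposed) and the clusters separated by the dashed line. miR-25-3p stands highest, at 9835 to 14335 CPM, and miR-18b-5p, on 1 to 9 counts, lowest.

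The summed members of each cluster differed far more in level from those of the other than the exposed and unexposed cells did. The 6 members of miR-106b-25 summed to 15291 and 14739 CPM in exposed and 14559 and 18271 CPM in unexposed cells. The 4 members of miR-106a-363 summed to 474 and 449 CPM in exposed and 500 and 764 CPM in unexposed cells. The members of both clusters together made up 1.27% to 2.02% of each library. These sums leave out miR-19b-3p and miR-92a-3p, which miR-106a-363 and miR-17-92 both encode. As miR-92a-3p averaged 23080 CPM over the 4 libraries, the total of the whole miR-106a-363 cluster is not known. The sum of the 4 miR-106a-363 members was 3.10% and 3.05% of the miR-106b-25 sum with ethanol and 3.43% and 4.18% without it.

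After TMM scaling the sum of miR-106a-363 was lower in both exposed cultures, with a log2 difference between the groups of -0.42. By library size only this difference was -0.27 and the groups overlapped, the sum being 0.0538% and 0.0440% of the exposed and 0.0423% and 0.0812% of the unexposed libraries. The ratio to the miR-106b-25 sum, which needs no scaling, was lower in both exposed cultures, with a log2 difference of -0.30. For the miR-106b-25 sum the log2 difference was -0.12 and the groups overlapped. Exact permutation tests gave 0.333 for the miR-106a-363 sum and for the ratio, and 1 for the miR-106b-25 sum, where 0.333 is the smallest two-sided p that 2 cultures against 2 allow. Over the 8 sums, ratios and shares tested in this way the adjusted p was 0.889 for these 2 and at least 0.889 for the rest. Without unexposed replicate 2 the difference of the miR-106a-363 sum was -0.15, so a large part of it rested on that culture. With 1 library left out the difference of the ratio lay between -0.44 and -0.16.

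Among the members of each cluster 1 miRNA of the miR-92 seed group dominated. miR-363-3p made up 70.6% to 82.7% of the miR-106a-363 counts, and miR-25-3p made up 67.5% to 78.5% of the miR-106b-25 counts. In miR-106a-363, miR-20b-5p took 9.63% to 16.6% and miR-106a-5p 7.24% to 12.8%, while miR-18b-5p took at most 0.0753%. In miR-106b-25, miR-93-5p took 10.6% to 19.9% and miR-106b-3p 9.45% to 10.9%. The hairpin farthest downstream in each transcript, MIR363 or MIR25, was thus the one with the most counts among these members.

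The arms of the miR-106b-25 hairpins were used unequally, and for miR-106b in the opposite sense to its former names, in which miR-106b-3p was the minor, starred strand. miR-106b-3p had 41917 and 36662 counts in exposed and 18206 and 22220 in unexposed cells, against 5133 and 4531 and then 2366 and 2292 counts for miR-106b-5p. The 3p arm was thus 8.17 and 8.09 times the 5p arm with ethanol and 7.69 and 9.69 times without it. The capitals in MIR106B show that the abundant arm, with the seed CGCACUG, does not carry the seed of the miR-17 family, and no other mature miRNA in the table matched to RefSeq had this seed. Whether both arms were captured equally well in the libraries was not tested.

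The other hairpins each favoured the arm named without a star. miR-93-5p was 47.7 and 77.9 times miR-93-3p with ethanol and 91.7 and 65.7 times without it. miR-25-3p was 230 and 203 times miR-25-5p in exposed and 179 and 221 times in unexposed cells. Among the 195 hairpins of which both arms were tested, the 5p arm had more counts in 100 and the 3p arm in 95, and the median imbalance was 3.30 on the log2 scale. miR-106b, with a mean log2 ratio of 5p to 3p of -3.07, lay near this median, and the arms of miR-93 and miR-25 were further apart.

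None of the 3 arm ratios separated the groups. The log2 difference of the ratio, exposed minus unexposed, was 0.087 for miR-106b (5p to 3p), -0.35 for miR-93 (5p to 3p) and 0.12 for miR-25 (3p to 5p), with exact permutation p values of 1, 0.667 and 0.667. Each of these changed sign when 1 library was left out. The exposed and unexposed ratios overlapped in all 3, while over all 195 hairpins they did not overlap for 29.7%.

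**Figure D2:**
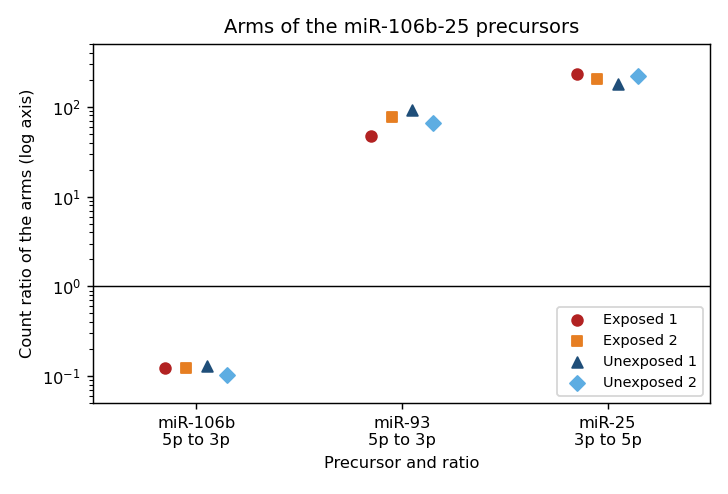
Count ratio of the arms of the miR-106b-25 hairpins on a log axis, with 1 point per library and a line at equal counts. miR-106b lies under the line in all 4 libraries, and miR-93 and miR-25 lie far above it.

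Exposed and unexposed interneurons were then compared miRNA by miRNA. Of the 9 members tested, miR-20b-5p had an unadjusted P under 0.05 in edgeR's quasi-likelihood test and was lower in the exposed cells, and the other 8 did not reach it. Over all 863 miRNAs 4.52% did so (39, with 1.97% lower and 2.55% higher), and 1 call among 9 is the fewest there can be above 0, so nothing is read from the count. The median log2 fold change of the 9 was -0.21, with 7 negative and 2 positive. Over all 863 it was -0.010, with 442 negative and 421 positive. No member (0) differed by more than 2-fold with a P under 0.05 in edgeR, while 2.32% of all miRNAs did. No member, and none of the 863 miRNAs (0), had an adjusted p under 0.05 in edgeR, limma-voom or DESeq2 on all 4 libraries with the filter on low counts. The lowest adjusted p over all miRNAs was 0.922 in edgeR, against 39 unadjusted P values under 0.05 in edgeR, 31 in limma-voom and 28 in DESeq2.

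miR-20b-5p, a miR-17 family miRNA known for targeting the hypoxia response genes HIF1A and VEGFA, had 1152 and 1570 counts with ethanol and 981 and 1417 without it. Scaled, its level was 45.7 and 64.5 CPM in exposed and 83.2 and 110 CPM in unexposed cells, so that every exposed value was below every unexposed one. The group means were 55.1 ± 13.3 and 96.6 ± 19.1 CPM (SD, n = 2 each). This was a 1.75-fold difference, or -0.81 as a log2 fold change, whose standard error (SE) was 0.28. The unadjusted P was 0.0197 and the adjusted p 0.922 in edgeR, and an exact permutation test gave 0.333.

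The result for miR-20b-5p depended on what it was set against. As a share of its near-identical counterpart miR-20a-5p, which differs at C1U and C10U, it was 2.89% and 2.46% with ethanol and 2.24% and 5.58% without it, and these overlapped. Scaled by library size only, its P in edgeR was 0.0653, and without exposed replicate 1 it was 0.208, with a log2 fold change of -0.59. Without unexposed replicate 1, where 10.1% of all miRNAs had a P under 0.05, the P of miR-20b-5p was 0.000403 and the adjusted p 0.0231 in edgeR, and its adjusted p ranged from 0.0231 to 1.00 over all alternatives. The summed level of the stem cell miRNAs, 2.42 to 3.89 CPM and mostly miR-302b-3p and miR-372-3p, was also lower in both exposed cultures. Within it miR-372-3p overlapped between the groups. Neuronal markers went both ways, as miR-124-3p was higher and miR-7-5p lower in both exposed cultures. Of the 7 neuronal markers 3 had a positive and 4 a negative log2 fold change, and their sum overlapped. The part of other cells in the result was not tested. In such bulk libraries fewer cells of a type and less RNA per cell cannot be told apart.

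The other members of miR-106a-363 also had negative log2 fold changes without passing the test. miR-106a-5p was at 35.8 and 44.9 CPM in exposed and 63.8 and 55.3 CPM in unexposed cells, so the groups did not overlap. Its log2 fold change was -0.56 (SE 0.25), and its unadjusted P in edgeR was 0.0568, or 0.0347 with upper quartile scaling. As a share of miR-17-5p, from which it differs by A1C, it was 3.17% and 2.92% in exposed and 3.11% and 4.24% in unexposed cells, and these overlapped. Its P was 0.0178 without unexposed replicate 2, a fit in which 11.4% of all miRNAs had a P under 0.05.

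miR-363-3p was at 392 and 340 CPM in exposed and 353 and 598 CPM in unexposed cells. Unexposed replicate 2 stood above the other 3 libraries, which overlapped. The log2 fold change was -0.38 (SE 0.28), with an unadjusted P of 0.221 in edgeR. It was 0.015 without unexposed replicate 2 and -0.71 without unexposed replicate 1, where P was 0.00680 and 10.1% of all miRNAs had a P under 0.05. The sign for miR-363-3p therefore depended on a single culture.

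The 6 members of miR-106b-25 gave no P under 0.05 in edgeR on all 4 libraries, with log2 fold changes from -0.32 to 0.042 and a median of -0.076. Over all 863 miRNAs the median was -0.010. miR-93-5p, known for repressing CDKN1A, was at 1623 and 2245 CPM in exposed and 2894 and 1937 CPM in unexposed cells, and the groups overlapped. Its log2 fold change was -0.32 (SE 0.28), and edgeR gave it an unadjusted P of 0.284. Without unexposed replicate 1 it was -0.011, and without unexposed replicate 2 it was -0.61 with a P of 0.0257.

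For miR-25-3p the mean was 11219 ± 705 CPM with ethanol and 12085 ± 3183 CPM without it (SD, n = 2 each). Its log2 fold change of -0.11 (SE 0.27) was smaller than the spread of the unexposed pair. Its star strand miR-25-5p was at 51.0 and 52.8 CPM in exposed and 54.9 and 64.8 CPM in unexposed cells. It was lower without overlap after TMM scaling but not by library size. By library size it was at 57.9 and 51.7 CPM with ethanol and 46.5 and 68.9 CPM without it. The log2 fold change of -0.21 (SE 0.24) had an unadjusted P of 0.410 in edgeR, and it was -0.075 with library size only. The arms of miR-106b and miR-93-3p were the steadiest members. miR-106b-5p was at 204 and 186 CPM in exposed and 201 and 178 CPM in unexposed cells, with a log2 fold change of 0.041 (SE 0.22), and this turned to -0.067 with upper quartile scaling.

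For miR-106b-3p the value was -0.046 (SE 0.21), and 0.097 with library size only. For miR-93-3p it was 0.042 (SE 0.25), and -0.068 with upper quartile scaling. These small values do not show that the levels were equal, since each is well within its SE. In all, 3 of the 9 members (miR-106a-5p, miR-20b-5p and miR-25-5p) were lower in the exposed cells without overlap after TMM scaling and 0 were higher. Over all miRNAs tested 14.6% were lower and 18.8% higher in this way, 33.4% together. By library size only, an alternative chosen after seeing the data, 2 members (miR-106a-5p and miR-20b-5p) were lower without overlap and 0 higher, against 7.30% lower and 23.5% higher over all miRNAs. Members of a cluster share a transcript and members of a seed family share sequence, so these 9 are not independent.

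**Figure D3:**
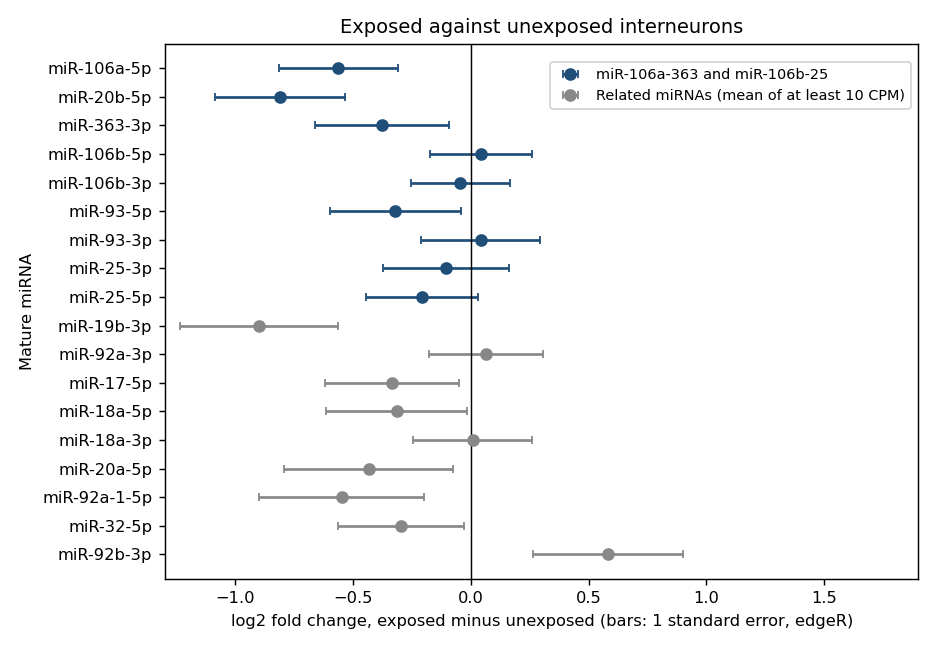
Log2 fold change, exposed minus unexposed, with bars of 1 standard error (SE) from edgeR, for the 9 tested members (blue) and for related miRNAs with a mean of at least 10 CPM (grey). The members lie between -0.81 for miR-20b-5p and 0.042 for miR-93-3p.

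For several members the cultures of a group differed as much as the groups did, and members of 1 transcript did not all vary together. In the unexposed cells miR-93-5p was 0.58 higher on the log2 scale in replicate 1 than in replicate 2, while for miR-25-3p, from the same stretch of MCM7, this difference was -0.54. The ratio of miR-25-3p to miR-93-5p was 7.22 and 4.78 with ethanol and 3.40 and 7.40 without it, and the groups overlapped although the largest was 2.18 times the smallest. For miR-106b-5p, also from that stretch, the difference between the unexposed cultures was 0.17.

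Levels centred on each miRNA's own mean were compared by the root mean square (RMS) of the log2 differences over the 4 libraries, where a small value means a like pattern. These are descriptions of 4 libraries that share their depth and scaling. miR-93-5p was closest to miR-17-5p, from the miR-17-92 transcript, with an RMS of 0.028, and this was the closest of the 375 other miRNAs with a mean of at least 10 CPM. miR-17-5p was 69.5% and 68.4% of miR-93-5p with ethanol and 71.0% and 67.3% without it. The largest of these 4 ratios was 1.05 times the smallest, against 2.18 times for miR-25-3p and miR-93-5p, whose hairpins are neighbours. The pair was singled out after its values were seen.

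The closest pairs of members lay within miR-106b-25, at an RMS of 0.047 for miR-106b-5p and miR-93-3p and 0.11 for miR-106b-3p and miR-93-3p. Some pairs across the clusters were nevertheless closer than some pairs within a cluster. miR-93-5p was at an RMS of 0.19 from miR-106a-5p, of 0.31 from miR-106b-5p and of 0.46 from miR-25-3p. miR-363-3p was at 0.15 from miR-25-3p but at 0.41 from miR-106a-5p of its own transcript, and its counts were 3.17% to 4.17% of those of miR-25-3p. A shared seed did not go with a like pattern throughout, since miR-106b-5p was closer to miR-93-3p (0.047) than to any other member and lay 0.35 from miR-106a-5p. miR-20b-5p, of the same seed, was at 0.43 from miR-93-5p and 0.51 from its counterpart miR-20a-5p.

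**Figure D4:**
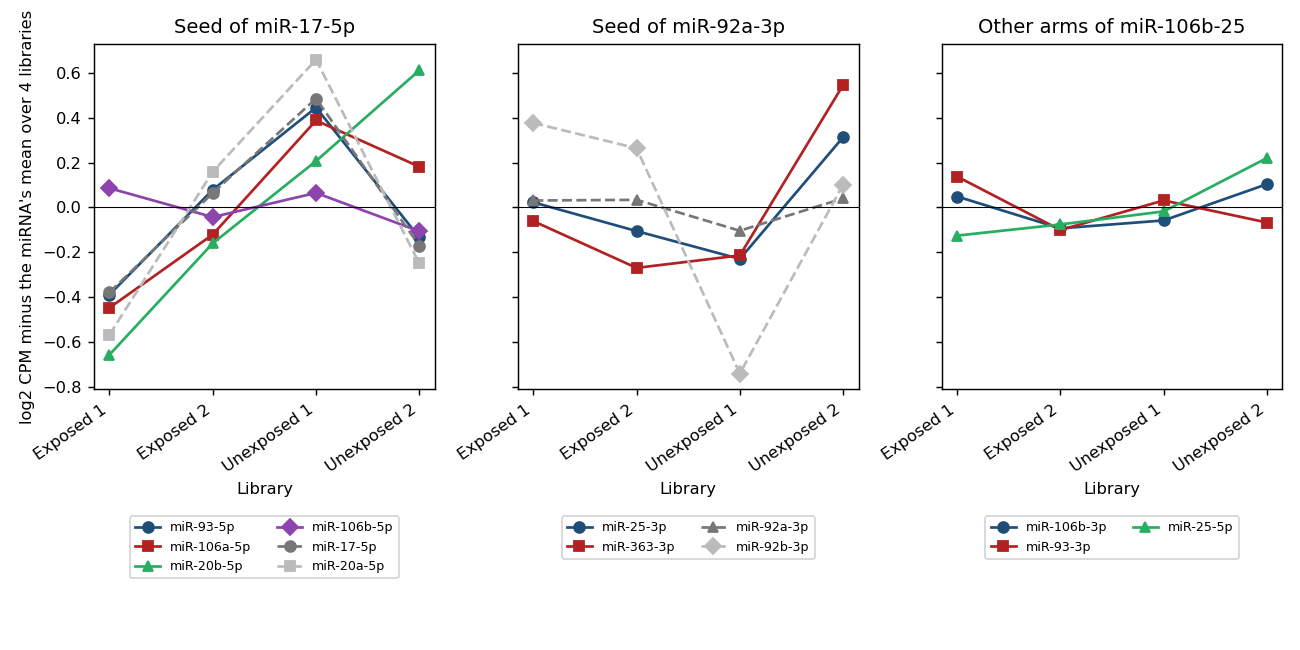
Log2 CPM of each miRNA minus its mean over the 4 libraries, by seed group, with solid lines for members and dashed lines for related miRNAs, and with lines drawn only to link the points of a miRNA. miR-93-5p and miR-17-5p follow each other with an RMS of 0.028, while miR-25-3p and miR-363-3p are highest in unexposed replicate 2.

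By the same measure, the miRNAs most like the summed miR-106a-363 members, among 367 others with a mean of at least 10 CPM, were miR-370-3p (RMS 0.064), miR-301a-5p (0.064) and miR-18a-5p (0.070), where the median was 0.40. Most like the summed miR-106b-25 members were miR-99b-3p (0.039), miR-296-3p (0.054) and miR-181b-2-3p (0.059), with a median of 0.27.

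Counting all miRNAs that share a seed shows how much of each seed in these cells was held by the members. The table held 8 miRNAs with the seed of miR-17-5p, of which miR-519d-3p and miR-526b-3p had 0 counts in all libraries. Their sum was 4619 and 6696 CPM in exposed and 9004 and 5559 CPM in unexposed cells, and these overlapped. The 4 members held 41.3% and 37.9% of it in exposed and 36.0% and 41.0% in unexposed cells. Most of that was miR-93-5p, at 32.1% to 35.1%, close in share to miR-20a-5p (34.3% to 41.2%) and above miR-17-5p (22.8% to 24.4%), while miR-106a-5p and miR-20b-5p each held under 2% of it in every library.

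miR-106b-5p and miR-93-5p together, the contribution of the MCM7 intron, held 39.5% and 36.3% of the miR-17 seed counts in exposed and 34.4% and 38.0% in unexposed cells. The difference was 1.71 percentage points (exact permutation p = 0.667). It was -0.13 points without unexposed replicate 1, so that its sign rested on that culture.

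The miR-92 seed had more counts than the miR-17 seed in every library, at 58538 and 55812 CPM in exposed and 42184 and 57544 CPM in unexposed cells. miR-92a-3p and miR-92b-3p held most of it, and miR-92a-3p can also come from MIR92A2 of miR-106a-363. The share of the members need therefore not be the whole share of the paralog clusters. miR-25-3p held 20.02% and 19.2% in exposed and 23.3% and 24.9% in unexposed cells, and miR-363-3p held 0.670% and 0.608% against 0.836% and 1.04%. The share of both together was lower in both exposed cultures, a difference of -4.80 percentage points (20.3% ± 0.616 against 25.1% ± 1.27, SD, n = 2 each, exact permutation p = 0.333).

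This share needs no scaling, and its difference lay between -5.70 and -3.90 points with 1 library left out. It moved with miR-92b-3p, which comes from a locus of its own and was at 22859 and 21138 CPM in exposed and 10530 and 18885 CPM in unexposed cells. Among miR-92a-3p, miR-25-3p and miR-363-3p only, the share of miR-25-3p and miR-363-3p was 34.0% and 31.9% with ethanol and 32.2% and 38.6% without it. The groups then overlapped, and the difference was -2.49 points, so that the separation rested on counting miR-92b-3p. For the seed of miR-18a-5p the member miR-18b-5p held at most 3.04% in any library.

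**Figure D5:**
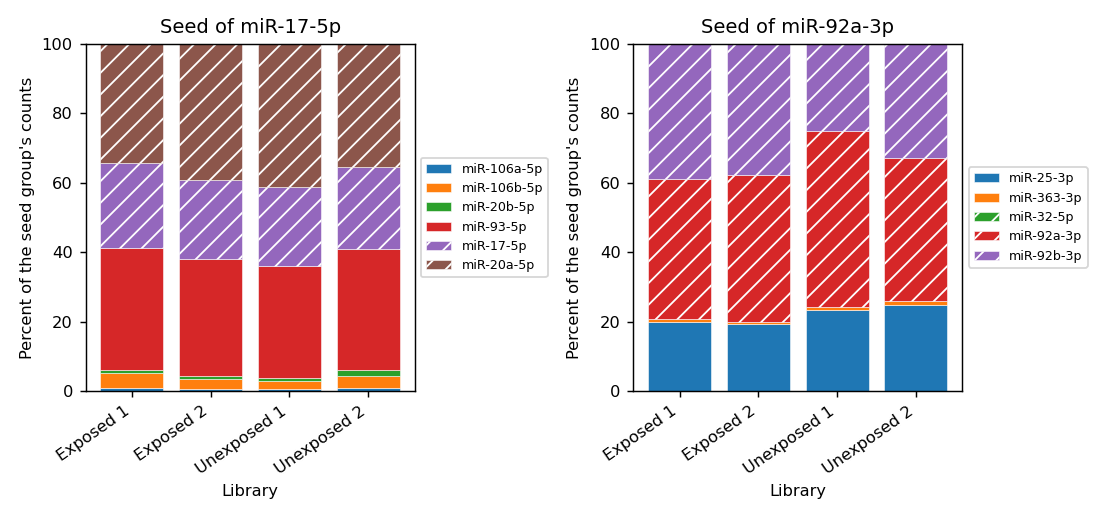
Percent of all counts with the seed of miR-17-5p (left) or of miR-92a-3p (right) held by each miRNA in each library. Hatched bars are miRNAs that are not among the members, and of these miR-92a-3p can also come from miR-106a-363. miR-93-5p holds 32.1% to 35.1% of the first group, and miR-25-3p holds 19.2% to 24.9% of the second.

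The remaining mature miRNAs of the miR-106a-363 transcript were mostly rare. Of 8 listed, 4 were tested and 1, miR-19b-3p, had an unadjusted P under 0.05 in edgeR. miR-19b-3p and miR-92a-3p can also come from miR-17-92, and their counts cannot be assigned to either cluster. miR-19b-2-5p, made only by the chromosome X hairpin, had 0 counts in every library, and miR-92a-2-5p had 3 or 4 counts. miR-363-5p had 38 and 67 counts in exposed and 21 and 73 in unexposed cells, and miR-20b-3p between 7 and 18. Of the 10 matures of miR-17-92 listed, 8 were tested, 7 with a negative log2 fold change, and 1 (miR-19a-3p) had a P under 0.05 in edgeR. Over all related miRNAs outside the members 24 were listed and 14 tested, with 2 lower and 0 higher at a P under 0.05 in edgeR, and a median log2 fold change of -0.33. Over all 863 miRNAs 1.97% were lower and 2.55% higher at that P, the median was -0.010, and 442 had a negative log2 fold change.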

How the data were processed

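Small RNA libraries (NEBNext) of 2 ethanol-exposed and 2 unexposed cultures of hESC-derived cortical interneurons were analysed. The deposited values are raw counts per mature miRNA, made by the authors with the CAP-miRseq pipeline and not normalized. The submitters' notes name hg19, and the pipeline's version and miRNA release are not given in the sources used here. Groups and replicate numbers were taken from the labels.

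From the counts, edgeR 4.0.16 in R 4.3.3 was run on all miRNAs passing filterByExpr (minimum count 10, minimum total 15), with TMM factors, the quasi-likelihood test without covariates and Benjamini-Hochberg adjustment over all 863. The standard error was taken from the F statistic. Sums, ratios and shares were compared by two-sided exact permutation tests, with 0.5 added to each count for arm ratios. Seeds were read from RefSeq for the 2367 of 2656 miRNAs matched by name. DESeq2 1.42.0 and voom (limma 3.58.1), other scaling and filters, a replicate block and fits lacking 1 library were the alternatives. On simulated counts (872 miRNAs), edgeR gave a P under 0.05 for 100% of 4-fold, 66.7% of 2-fold and 4.85% of unchanged miRNAs. These counts were drawn with the same dispersion for every miRNA and no scaling differences, so the percentages do not give error rates for the real libraries. Chi-square per degree of freedom between replicates was 795 and 712, so no library was repeated.

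The members and lists were chosen with earlier results of these data known. All members were named, then the other matures of miR-106a-363, those of miR-17-92, and miRNAs sharing a seed with a member and averaging at least 10 CPM. For each cluster sum the 3 miRNAs with the most alike pattern were added.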

Additional observations from a re-analysis of the deposited data

How the results depend on the processing

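The number of members with an unadjusted P under 0.05, which was 1 in edgeR, was also 1 with limma-voom, DESeq2, DESeq2's size factors, no filter, at least 10 counts in every library and a replicate block. It was 0 with library size only and 2 with upper quartile scaling, and between 0 and 3 with 1 library left out. In those fits the lone culture of a group is assumed to vary like the rest, and up to 11.4% of all miRNAs had a P under 0.05. Library size only moved the median of all log2 fold changes to 0.14 and upper quartile scaling to -0.12, and the higher among all calls went from 56.4% to 81.1% and 34.9%. Calls over all miRNAs numbered 94 with no filter, of which 6 had an adjusted p under 0.05, and 39 with it, of which 0 did.

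Same-numbered libraries deviated with a correlation of -0.19 across miRNAs, and nothing says whether they share more than the number. The replicate block left 26 of all miRNAs with a P under 0.05. Pairing the numbers crosswise, an alternative added after seeing the data, gave 59. The number of members was 1 in both.

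The sign turned for miR-106b-5p with upper quartile scaling (-0.067), without exposed replicate 1 (-0.025) and without unexposed replicate 2 (-0.079). For miR-106b-3p it turned with library size only (0.097), without exposed replicate 2 (0.031) and without unexposed replicate 2 (0.00043). For miR-93-3p it turned with upper quartile scaling (-0.068), without exposed replicate 1 (-0.083) and without unexposed replicate 2 (-0.044), for miR-25-3p with library size only (0.014) and without unexposed replicate 2 (0.15), and for miR-363-3p without unexposed replicate 2 (0.015). With 1 library left out the ranges reached 0.12 for miR-106b-5p, 0.16 for miR-93-3p, -0.36 for miR-25-3p and -0.71 for miR-363-3p. The miR-106b-25 sum turned with library size only (0.033) and ranged from -0.29 to 0.0080 with 1 library left out. The log2 arm ratios then ranged from -0.079 to 0.25 for miR-106b, -0.70 to 0.0056 for miR-93 and -0.034 to 0.27 for miR-25, and the miR-17 seed share from -0.13 to 3.55 points. Beyond the scaling itself, the causes were not tested.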

Other observations

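Some related miRNAs outside the members, named by the same rule, had larger values than most members. miR-19b-3p, made by both miR-17-92 and miR-106a-363, was at 8.33 and 9.37 CPM with ethanol and 20.9 and 12.2 CPM without it, and its log2 fold change of -0.90 (SE 0.33) had an unadjusted P of 0.0279 in edgeR. miR-19a-3p of miR-17-92, which shares its seed, had 61 and 78 counts in exposed and 110 and 48 counts in unexposed cells, and its log2 fold change of -1.21 (SE 0.45) had an unadjusted P of 0.0290 in edgeR. Of its 4 levels, 9.33 CPM in unexposed replicate 1 stood apart from 2.42 to 3.73 CPM in the rest. miR-92b-3p was the one tested miRNA sharing a seed with a member that was higher in both exposed cultures, with a log2 fold change of 0.58 (SE 0.32) and an unadjusted P of 0.106 in edgeR. After adjustment over all miRNAs each p in edgeR was 0.922.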
